A study of Homo sapiens with 24 samples.

Results

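Replication-dependent histone genes supply the histones that package newly copied DNA. They lie in clusters, are short, and mostly lack introns, and their mRNAs end in a stem-loop instead of a poly(A) tail. H2A and H2B pair as dimers and H3 and H4 as a tetramer to form the nucleosome core, and H1 sits on the linker DNA. Transcription and mRNA maturation take place in the histone locus body, a nuclear structure organised by NPAT. Myc is a transcription factor that binds DNA with its partner MAX, with the E-box CACGTG as its classical site.

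The members are the protein-coding genes in the RefSeq annotation of GRCh38.p14 (hg38) whose symbol is H1-1 to H1-6, or begins with H2AC, H2BC, H3C or H4C and a number. There were 70 such genes among 20037 protein-coding genes: 6 of H1, 17 of H2A, 19 of H2B, 13 of H3 and 15 of H4. Chromosome 6 held 55 of them between 25726063 and 27893891, chromosome 1 held 13, and H4C16 on chromosome 12 and H2BC12L on chromosome 21 stood alone. With a gap of over 500 kb taken as a break, the chromosome 6 genes formed blocks of 34, 5 and 16 genes. Those of chromosome 1 formed a block of 11 at 149782689 to 149887965 and the neighbours H2AC25 and H2BC26 near 228457364.

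The assay was CUT&Tag for Myc: an antibody directs a transposase to cut and tag DNA around its target, and places where its tags pile up are called as peaks. Both libraries came from MIA PaCa-2 cells, a cell line long established from a human pancreatic cancer. In both the cells carry MED30, a subunit of the Mediator complex, under doxycycline control. The series asks how overexpressed MED30 influences the binding of other factors. One library was made without doxycycline and the other is titled as day 5 of doxycycline, whereas the treatment protocol given for all samples states 2 days. The labels do not say whether the line is a clone. The other 22 of the 24 samples, IgG controls and a Myc library at another time of doxycycline included, were not analysed here. Peaks below are those called in the Myc libraries. With 1 library per condition no difference between them has a replicate check, and no test was made.

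The lists held 3472 peaks without doxycycline and 6727 at day 5 on chromosomes 1 to 22, X and Y. The lists do not give sequencing depth, and the median peak had 11 and 12 fragments over its summit. Fragments were not scaled between the libraries, so a higher count in either list is not a measured gain. A gene was counted as marked when a peak came within 1 kb of either end of its span. Intervals are exact at 95%, Clopper-Pearson for shares and Poisson for fragments. They cover counting error only, and shares treat genes as independent although neighbours can share a peak.

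The sequences below are the 250 bases before the start of 7 members, from RefSeq (GRCh38.p14), 5′ to 3′ on the strand of the gene. They show the promoters on which the results turn: divergent H2A and H2B genes with a peak, H4 genes with a peak, and an H1 gene without one. Capitals mark 4 motifs on either strand: CCAAT, the TATA box TATAAA, the octamer ATTTGCAT, which POU2F1 binds, and the H1 box AAACACA. Adjoining or overlapping matches run together, as TATAAA does with its reverse complement. The peaks are described further on. H2AC25 (chr1:228457874-228458123, minus strand) had a peak in both lists. H2AC14 (chr6:27814778-27815027, minus strand), H2AC13 (chr6:27807923-27808172, plus strand) and H4C8 (chr6:26285535-26285784, minus strand) had one at day 5 only. H2AC11 (chr6:27132793-27133042, plus strand) and H4C14 (chr1:149832407-149832656, plus strand) had one without doxycycline only, and H1-4 (chr6:26156079-26156328, plus strand) had none. H4C8 and H4C14 held none of the 4 motifs in these bases.
H2AC25: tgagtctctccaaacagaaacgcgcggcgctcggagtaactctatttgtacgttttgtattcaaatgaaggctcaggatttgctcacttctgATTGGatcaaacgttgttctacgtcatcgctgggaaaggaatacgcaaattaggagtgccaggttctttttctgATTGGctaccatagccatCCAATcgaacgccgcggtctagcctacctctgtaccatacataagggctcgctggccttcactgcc
H2AC14: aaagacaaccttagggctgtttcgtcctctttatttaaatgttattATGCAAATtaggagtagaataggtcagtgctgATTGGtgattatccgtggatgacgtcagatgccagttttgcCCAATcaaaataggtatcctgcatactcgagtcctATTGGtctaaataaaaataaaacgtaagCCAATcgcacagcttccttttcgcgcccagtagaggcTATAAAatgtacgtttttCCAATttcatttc
H2AC13: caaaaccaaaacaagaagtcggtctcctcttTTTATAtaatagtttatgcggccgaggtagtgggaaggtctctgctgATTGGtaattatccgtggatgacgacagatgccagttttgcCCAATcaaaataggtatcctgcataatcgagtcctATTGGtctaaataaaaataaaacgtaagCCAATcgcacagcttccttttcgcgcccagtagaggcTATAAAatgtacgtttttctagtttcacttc
H2AC11: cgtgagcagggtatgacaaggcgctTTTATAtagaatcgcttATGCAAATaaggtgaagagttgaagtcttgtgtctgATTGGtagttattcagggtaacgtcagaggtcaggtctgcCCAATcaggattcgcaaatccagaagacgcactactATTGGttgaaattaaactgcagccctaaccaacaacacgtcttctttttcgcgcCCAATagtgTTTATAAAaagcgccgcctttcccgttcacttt
H4C14: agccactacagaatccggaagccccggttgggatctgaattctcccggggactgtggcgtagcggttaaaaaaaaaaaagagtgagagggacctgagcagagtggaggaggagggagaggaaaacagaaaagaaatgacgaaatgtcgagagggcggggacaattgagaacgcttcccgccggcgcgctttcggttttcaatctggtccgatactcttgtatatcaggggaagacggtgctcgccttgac
H4C8: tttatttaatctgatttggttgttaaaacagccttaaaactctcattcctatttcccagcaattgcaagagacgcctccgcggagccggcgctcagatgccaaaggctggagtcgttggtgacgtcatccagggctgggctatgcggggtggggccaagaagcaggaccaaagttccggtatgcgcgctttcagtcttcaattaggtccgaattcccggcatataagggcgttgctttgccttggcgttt
H1-4: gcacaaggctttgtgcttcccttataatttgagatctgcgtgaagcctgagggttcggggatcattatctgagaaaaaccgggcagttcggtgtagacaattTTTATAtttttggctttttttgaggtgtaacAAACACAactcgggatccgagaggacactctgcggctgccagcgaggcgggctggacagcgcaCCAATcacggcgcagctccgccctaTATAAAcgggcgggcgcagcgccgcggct

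The promoter table held an entry for 64 of the 70 members, each of 300 bases from 250 before the start to 50 after it. The 6 without an entry were H4C1, H4C3, H2AC12, H3C11, H3C12 and H2BC12L. CACGTG, which reads the same on both strands, was in 0 of 64 member promoters, against 7.26% of all 35116 promoters of the table. This says only that these letters are not in these windows. CCAAT or its reverse complement was in 54 of 64, against 34.6% of all promoters, and TATAAA in 42, against 11.5%. A match anywhere in the window on either strand counted, so not all 42 are a TATA box of the gene itself. The only match before the start of H2BC4 lay 220 bases upstream, on the other strand. That of H2BC14 lay 219 bases upstream, also on the other strand. Every H1, H2A, H2B and H3 promoter in the table held CCAAT, and 3 of 13 H4 promoters did. ATTTGCAT was in 26 of 64 (1.77% of all promoters), with 11 of 16 H2A, 14 of 18 H2B, 1 of 11 H3, 0 of 6 H1 and 0 of 13 H4. The H3 case is H3C4, which shares its start and so its site with H2AC7. Head-to-head H2A and H2B starts lie 193 to 247 bases apart, so their windows overlap. A site between them can count for both genes, so these promoters are not independent. The counts by family, and those of marked and unmarked promoters, include such repeats. AAACACA was in all 6 H1 promoters and in 3 others, against 5.64% of all promoters. The marked promoters held these motifs in 20 (CCAAT), 18 (TATAAA), 10 (ATTTGCAT) and 2 (AAACACA) of 26 cases, and the unmarked ones in 34, 24, 16 and 7 of 38. The GC content of the member promoters had a median of 43.2%, from 36.3 to 58%, against 58.7% over all promoters. It was 43.8% in marked and 42.2% in unmarked members.

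Myc peaks were found at 27 of the 70 histone genes. The other 43 (61.4%) had none in either list, against 71.1% of all coding genes. Without doxycycline 12 were marked (17.1%, interval 9.18 to 28), from 7 distinct peaks, and at day 5 20 were (28.6%, 18.4 to 40.6), from 13 distinct peaks. Over all protein-coding genes the shares were 14.4% and 27.4%, so the histone genes as a whole were near the background in each list taken alone. Among the 466 other coding genes with a span of at most 1 kb, 3.65% and 4.51% were marked, and among the 62 members of that length 16.1% and 27.4%. Another coding gene end lies within 1 kb of 40 members. Of these 20% and 37.5% were marked, against 25.3% and 44.9% of the 5670 other coding genes with such a neighbour.

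Few histone genes were marked in both lists. In both were 5 members (7.14%, against 12.9% of all coding genes), at day 5 only 15 (21.4%, against 14.5%), and without doxycycline only 7 (10%, against 1.57%). These 7 genes rested on 4 peaks. With the day 5 list shortened by rank to the length of the other, 7 members were marked at day 5 (10%, against 15.7% of all coding genes). This was fewer than the 12 without doxycycline. This cut trimmed the day 5 list alone. With each list cut by rank to its upper 50%, 1736 peaks without doxycycline and 3363 at day 5, 1 and 7 members were marked. Which list marked more members thus changed with the way the lists were cut. Whether list length accounts for the higher count at day 5 was not tested.

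**Figure D1:**
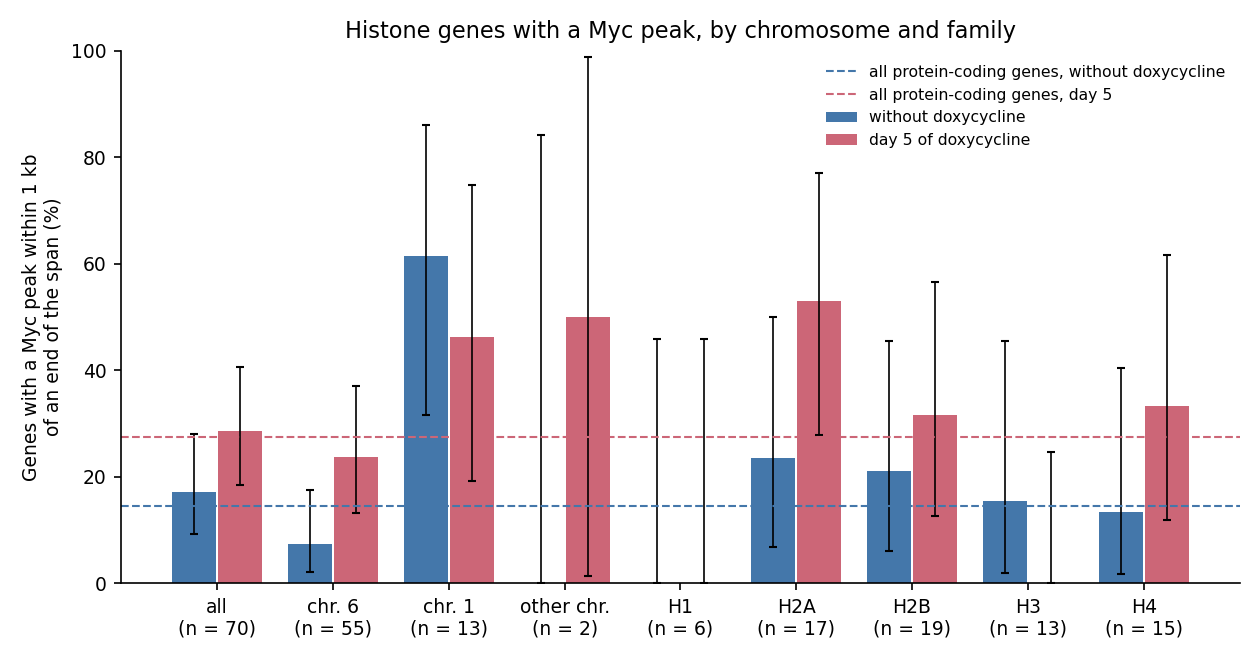
Percentage of histone genes marked by a Myc peak (y axis) for all 70 genes, by chromosome and by family; bars are the 2 libraries, whiskers exact 95% binomial intervals, and dashed lines the shares over all protein-coding genes (14.4% and 27.4%). Chromosome 1 genes were marked most often without doxycycline (61.5%), and no H1 gene was marked in either list.

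By position, more chromosome 6 genes were marked at day 5 than without doxycycline, and fewer chromosome 1 genes, with no test of either. These counts take each list at its full length, 3472 peaks without doxycycline and 6727 at day 5. The share of all coding genes was also higher at day 5, 27.4% against 14.4%. The chromosome 6 shares were below these values in both lists, and the chromosome 1 shares above them. Only the interval of the chromosome 1 share without doxycycline excludes the value for all coding genes. On chromosome 6, 4 of 55 members were marked without doxycycline (7.27%, 2.02 to 17.6) by 2 peaks, and 13 at day 5 (23.6%, 13.2 to 37) by 8 peaks. On chromosome 1, 8 of 13 were marked without doxycycline (61.5%, 31.6 to 86.1) by 5 peaks, and 6 at day 5 (46.2%, 19.2 to 74.9) by 4. The largest block, 34 genes on chromosome 6 from 25726063 to 26285534, had 0 marked members without doxycycline (interval up to 10.3%) and 5 at day 5 (14.7%). Its neighbour of 5 genes had 2 in each list, not the same ones, and the block of 16 had 2 and 6.

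By family, H2A had the highest share of marked genes in both lists, and H1 had none. The intervals are wide, and no difference between families was tested. Of 17 H2A genes 4 were marked without doxycycline and 9 at day 5 (52.9%, 27.8 to 77), and of 19 H2B genes 4 and 6 (31.6%). Of 15 H4 genes 2 and 5 were. Of 13 H3 genes 2 were marked without doxycycline, H3C13 and H3C14, and 0 at day 5 (interval up to 24.7%). None of the 6 H1 genes was marked in either list (interval up to 45.9%), and their nearest peaks lay 24 to 139 kb away without doxycycline and 8.76 to 45.2 kb at day 5.

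H2A and H2B genes often lie head to head, sharing the DNA between their starts as a promoter. There were 11 such H2A and H2B pairs among the members with an annotated start, with 193 to 247 bases between the starts (median 235). A peak was shared by both genes of 3 pairs without doxycycline and of 5 at day 5, 6 pairs in all. At day 5 the peak spanned both starts in all 5, and without doxycycline in 2 of 3. The 22 genes of these pairs gave 6 of the marked members without doxycycline and 11 at day 5, and the 42 other genes with an annotated start gave 6 and 8.

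H2AC25 and H2BC26, the H2A and H2B genes of the distal chromosome 1 site, were marked by an overlapping peak in both lists. Without doxycycline the peak ran from 228457495 to 228459293 with 12 fragments over its summit (interval 6.2 to 21). At day 5 it ran from 228457483 to 228458699 with 20 (12.2 to 30.9), the most of any peak at a histone gene. Overlapping intervals do not show that the counts are equal. The local background was 1.52 fragments without doxycycline and 2.55 at day 5. The summit lay 189 bp inside H2BC26 without doxycycline and 34 bp inside H2AC25 at day 5.

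H2AC15 and H2BC15, on chromosome 6, were also marked in both lists, but not by overlapping peaks. Without doxycycline the peak lay at 27837426 to 27837869, past the far end of H2AC15, with 10 fragments (4.8 to 18.4) and its summit 914 bp from the start of H2AC15. At day 5 it lay at 27838060 to 27839014, over both starts, with 14 fragments (7.65 to 23.5) and its summit 78 bp inside H2AC15. The ends of these peaks are 191 bp apart.

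The head-to-head genes H2AC14 and H2BC14 carried the highest-ranked day 5 peak among those at the chromosome 6 members, at 27814418 to 27815237, with 17 fragments (9.9 to 27.2). No peak of the other list overlapped it, and the nearest lay 21119 bp away. The neighbouring H2BC13 and H2AC13 had a day 5 peak with 11 fragments (5.49 to 19.7), also spanning both starts. The promoters of H2AC13 and H2AC14, taken to 50 bases after the start, agree at 252 of 300 bases. H2BC4 and H2AC6 had a day 5 peak with 13 fragments (6.92 to 22.2) and none without doxycycline. H2BC12 and H2AC12 had a day 5 peak of 10 fragments (4.8 to 18.4), whose summit was 109 bp before the start of H2BC12.

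H2BC11 and H2AC11 went the other way. Their peak, at 27132617 to 27133384 over both starts, was listed without doxycycline with 13 fragments (6.92 to 22.2), and no day 5 peak lay closer than 13569 bp. A member without a listed peak fell below the peak caller's threshold or had no signal, and the lists cannot separate these cases.

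Of the genes for H4, the partner of H3 in the tetramer, 9 had no peak in either list, and the 6 marked ones had peaks reaching no other member. H4C8 had a day 5 peak at 26285279 to 26285896 with 13 fragments (6.92 to 22.2), and its summit lay 118 bp before the start. An annotated end of the non-coding LOC124901287 lies 28 bp from that summit, and a tRNA gene, TRX-CAT1-2, lies within 1 kb of the peak. H4C2 and H4C4 had 7 fragments each at day 5 (2.81 to 14.4), with summits 254 and 458 bp after the start. H4C16 was marked at day 5 by a peak of 10 fragments whose summit lay 997 bp after its start and nearer to an end of the gene LOC105369669.

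The chromosome 1 block holds genes whose promoters are identical copies. The 300 bases around the starts of H4C14 and H4C15 are identical. H2AC18 and H2AC19 agree at 299 of 299 bases compared, and H3C14 and H3C15 at 296 of 296, after shifts of a few bases. H4C14 had a peak only without doxycycline, at 149832697 to 149833067 with 12 fragments (6.2 to 21), and this was the highest-ranked peak of that list at any of the 70 members. H4C15 had a peak in both lists, with 8 fragments (3.45 to 15.8) without doxycycline and 9 (4.12 to 17.1) at day 5. H2AC18 was marked without doxycycline, with 9 fragments (4.12 to 17.1), and its copy H2AC19 at day 5, with 12 (6.2 to 21). The H2AC19 peak also lies inside the annotated span of H4C15, which is 16753 bp long, but not within 1 kb of its ends. How the aligner placed fragments that match both copies is not given in the sources used here. Of these peaks, that of H2AC18 lies outside the bases compared, as does most of that of H4C14, and whether the copies are identical there was not tested. With such copies, and H3C4 and H2AC7, which share an annotated start, counted as 1 gene, 11 of 66 were marked without doxycycline, 20 at day 5, 6 in both and 5 only without doxycycline.

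Other genes of the block were reached by peaks with 6 to 10 fragments. H2BC18 and H3C13 shared a peak without doxycycline of 6 fragments (2.2 to 13.1), 324 bp before the start of H2BC18 and 999 bp after that of H3C13. H3C14 was marked by the H2AC18 peak, whose nearest edge was 951 bp from it, just inside the limit. H2AC21 and H2AC20 shared a day 5 peak of 10 fragments (4.8 to 18.4), 51 bp before the start of H2AC21 and 598 bp past the far end of H2AC20 at its nearest edge. Just outside the limit at day 5 were H3C15 at 1324 bp, H2BC21 at 1327 bp and H3C10 at 1519 bp, and without doxycycline the next was H2BC12 at 4909 bp. The 43 members without a peak in either list had their nearest peak at a median of 45.5 kb without doxycycline and 18.2 kb at day 5. They were 11 H3, 11 H2B, 9 H4, 6 H2A and 6 H1 genes, and included all 10 H3 genes of chromosome 6.

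**Figure D2:**
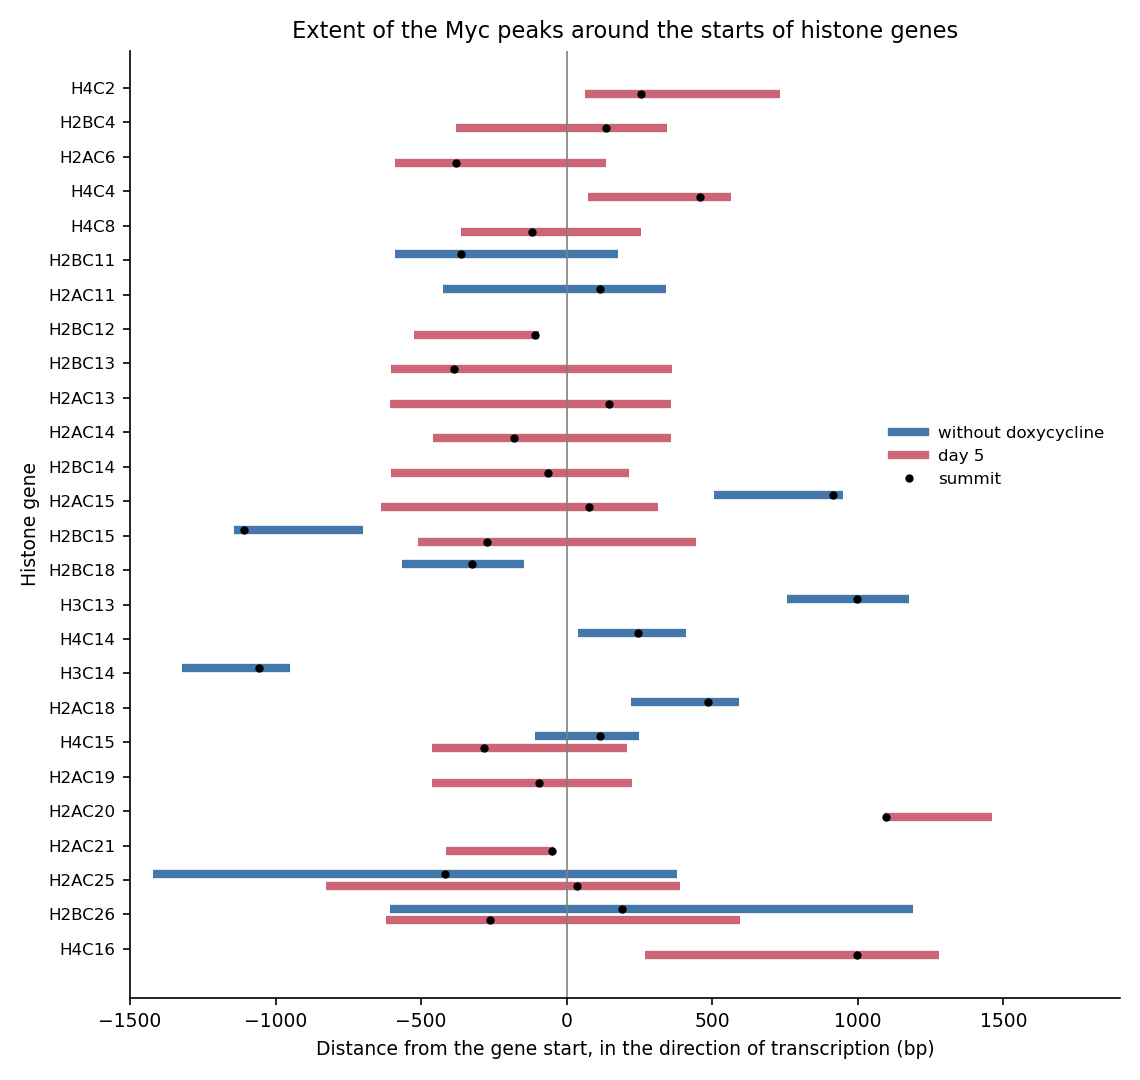
Extent of each Myc peak (bars) and its summit (points) relative to the start of the histone gene it marks, in bp in the direction of transcription, for the 26 marked members with an annotated start; blue is without doxycycline and red day 5. At day 5 13 of 19 bars cross the start, and without doxycycline 5 of 12 do.

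Peaks at histone genes covered the start of the gene in a larger part of the cases at day 5 than without doxycycline, with no test made. The peak covered the start in 13 of 19 cases at day 5, with a median of 182 bp between summit and start, and in 5 of 12 cases without doxycycline, with a median of 392 bp. A case is a gene and its peak, so a peak at neighbouring genes counts for each of them. The peaks also differed in width, with a median of 420 bp without doxycycline and 687 bp at day 5. A wider peak covers a start more easily, so these counts do not show a change of position. A peak served at least 2 coding genes in 5 of 7 cases without doxycycline (71.4%) and in 8 of 13 at day 5 (61.5%), and at least 2 members in 5 and 7. Of the other peaks at coding gene ends, 26.3% and 24.6% served at least 2 coding genes. Another coding gene end lay within 1 kb of 40 of the 70 members, and of 5710 of all 20037 coding genes. Whether this spacing accounts for the shared peaks was not tested.

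**Figure D3:**
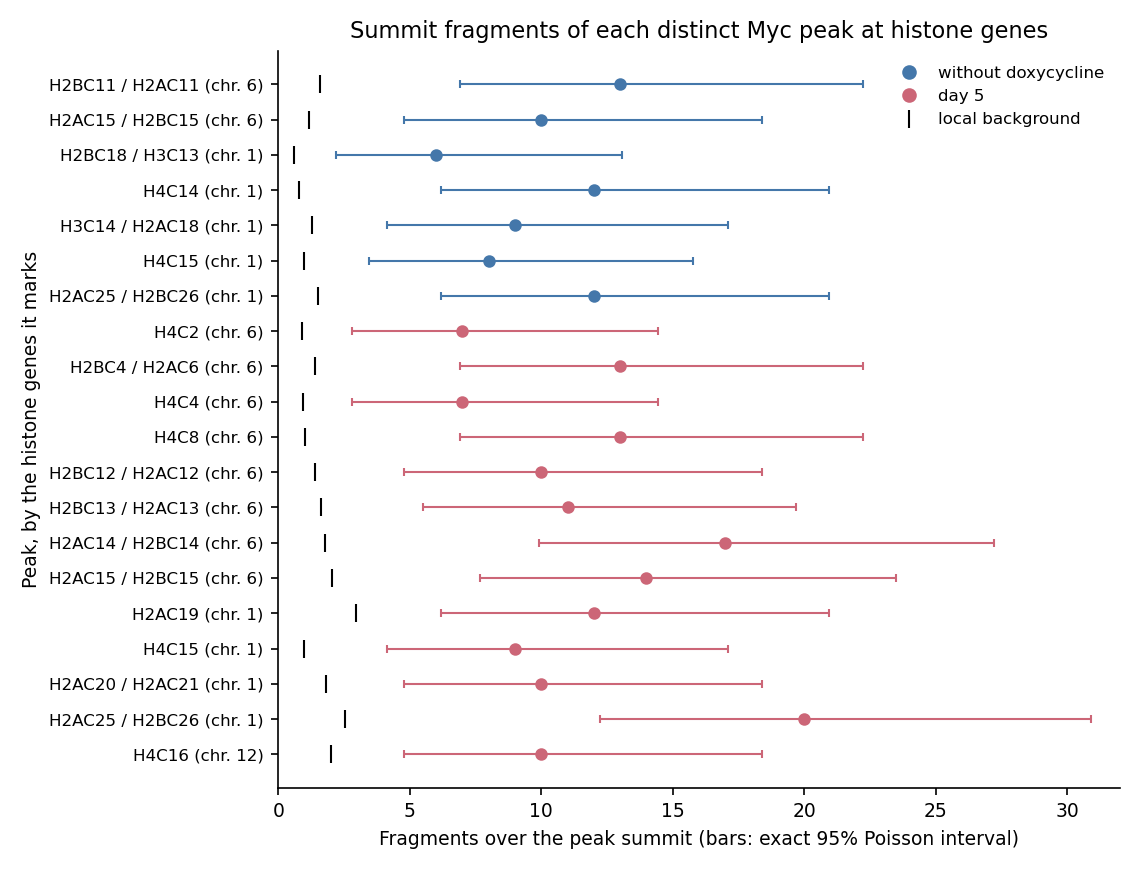
Fragments over the summit (x axis) of each distinct Myc peak at histone genes, with exact 95% Poisson intervals, and the local background as a tick; rows name the genes a peak marks, blue is without doxycycline and red day 5. The values run from 6 to 13 without doxycycline and from 7 to 20 at day 5. All exceed their local background because peaks are called for doing so.

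The peaks at histone genes ranked mostly in the lower part of both lists. The −log10 q and fold are the authors' values and were used only to rank and describe peaks within a list. Of the 7 peaks without doxycycline, 1 was in the upper 50% of its list, the peak at H4C14 (percentile 67.5). Of the 13 at day 5, 4 were, at H2AC25 and H2BC26 (69.2), H2AC14 and H2BC14 (68.5), H4C8 (63.3) and H2BC4 and H2AC6 (50.6). Their median −log10 q was 3.74 without doxycycline and 3.63 at day 5, against 5.91 and 6.48 for all peaks at coding gene ends. Within the upper 50% of each list 1 and 7 of the 70 members were marked, against 8.02% and 15.3% of all coding genes.

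**Figure D4:**
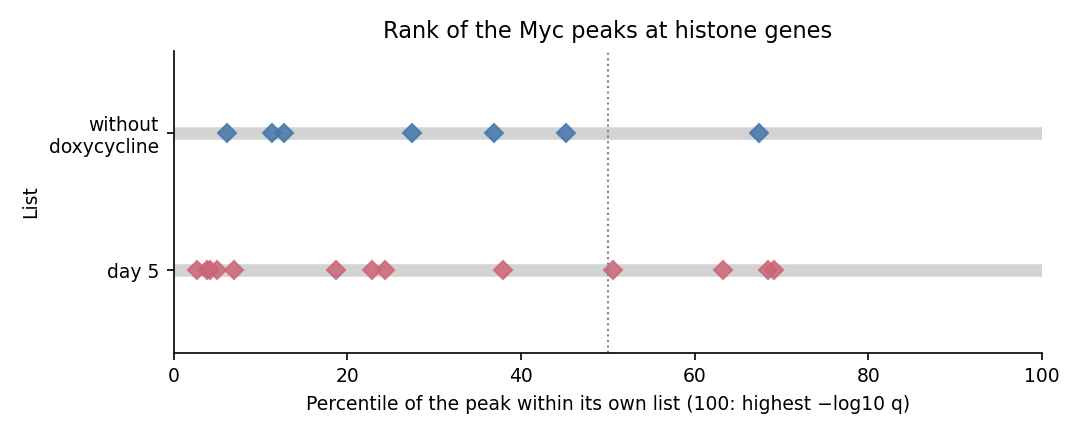
Percentile of each Myc peak at a histone gene within its own list (x axis, 100 is the highest −log10 q) for the 7 peaks without doxycycline and the 13 at day 5; the dotted line is the middle of the list. All but 1 and 4 peaks lie in the lower part, and none lies above 69.2.

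Genes whose products act on the histone genes and their mRNAs were also examined. Of 21 genes of the histone locus body and of histone mRNA processing, 7 (33.3%) were marked without doxycycline and 14 (66.7%) at day 5. Over all coding genes the shares were 14.4% and 27.4%. With the day 5 list shortened by rank to the length of the other, 11 were marked at day 5, beside 15.7% of all coding genes. NPAT, the organiser of the histone locus body, had 17 fragments (9.9 to 27.2) and 28 (18.6 to 40.5), and lies head to head with ATM. SLBP, which binds the stem-loop of histone mRNAs, had a peak only at day 5, with 19 fragments (11.4 to 29.7). SRRT, a partner of the cap-binding complex, had 8 (3.45 to 15.8) and 45 (32.8 to 60.2). NCBP1, the large subunit of that complex, had 30 (20.2 to 42.8) and 21 (13 to 32.1). These fragments, like those below, were not scaled between the libraries.

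Of 22 histone chaperone genes 10 (45.5%) and 14 (63.6%) were marked, beside 14.4% and 27.4% of all coding genes. With the day 5 list shortened in the same way, 10 were marked at day 5, as many as without doxycycline. SET had 30 fragments (20.2 to 42.8) without doxycycline and 37 (26.1 to 51) at day 5. SUPT16H, a subunit of the FACT complex, had 9 (4.12 to 17.1) and 26 (17 to 38.1). ANP32E, a chaperone of H2A.Z, had 13 (6.92 to 22.2) and 25 (16.2 to 36.9), and RBBP4, a subunit of the CAF-1 complex, 16 (9.15 to 26) and 22 (13.8 to 33.3).

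Of 26 other histone genes, which fall outside the naming rule, 2 (7.69%) and 4 (15.4%) were marked. These shares were below the 14.4% and 27.4% of all coding genes. Whether these genes are expressed in these cells was not examined, so the shares do not describe histone variants as a class. H2AX, the variant phosphorylated at DNA breaks, had 13 fragments (6.92 to 22.2) and 14 (7.65 to 23.5). H2AZ1 and H3-3B, which encode the variants H2A.Z and H3.3, were listed only at day 5, with 8 fragments each (3.45 to 15.8).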

How the data were processed

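Peak lists of 2 of the 24 samples were used, grouped by their titles. The build hg38 and the tools MACS2, Bowtie2, Trim Galore and deepTools are named in the submitters' processing notes. Versions, settings and any control used for calling: not given in the sources used here. Each deposited list has 10 columns, called per library. The authors deposited a score (the integer part of 10 times −log10 q), the fold over the local background (a ratio), and the −log10 p and −log10 q of the summit. The deposited summit offset is in bp. Values were ranked within a list only.

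From the deposited fold and −log10 p, whole fragments n were solved as fold = (n + 1)/(background + 1) with the Poisson upper tail giving the p-value, within 0.001 in −log10 p. All peaks had a solution, and at histone genes it was the only one. Gene spans and promoters are from RefSeq GRCh38.p14; coding symbols were counted without repeats. Python 3.11.15 and SciPy 1.17.1 were used. Peak assignment and fragment recovery were tested on simulated data. All pairs of the 64 member promoters were compared without gaps, with shifts of up to 30 bases.

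The members and gene lists were chosen with earlier results of these data known. Named were all marked members, members nearest outside 1 kb, for each other list the 4 genes at most whose day 5 peak ranked highest, and NPAT, SLBP, H2AZ1, H2AX and H3-3B; 1 gene that this rule names is not reported here. Of 29 symbols of the other histone genes, 1 had no match and 2 are members. Alternatives were other windows, summits, ranks, assignment to the nearest gene end, starts only and identical copies.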

Additional observations from a re-analysis of the deposited data

How the results depend on the processing

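The report gives 12 members marked without doxycycline, 20 at day 5, 5 in both, 15 in the day 5 list alone and 7 in the other alone, and the counts below keep this order. The upper 50% of each list gave 1, 7, 0, 7 and 1 members, from 1 and 4 peaks. With equal numbers of peaks there were 7 members at day 5, 2 in both and 5 at day 5 only, from 4 day 5 peaks, and 1 of the other histone genes at day 5 in place of 4. The histone locus body and mRNA processing list then had 11 genes at day 5 in place of 14, and the chaperones 10 in place of 14. For the members this setting turned the order of the libraries, since 12 stayed marked without doxycycline. A −log10 q of at least 3 gave 7 members without doxycycline, 3 of them only there, and 4 and 8 peaks. An overlap with the span itself gave 7 without doxycycline, 3 in both and 4 only without doxycycline. Giving each peak to the nearest gene end gave 7, 11, 2 and 9 for the first 4 counts. By their construction these settings take fewer peaks or fewer genes per peak. A reciprocal overlap of 50% left 1 of the 2 shared peaks. Windows of 500 and 2500 bp, summits within 1 kb and gene starts only kept every member count within 1.5 times. The starts-only counts cover 64 members. Merging peaks within 500 bp left the numbers of peaks at members unchanged. Leaving out exactly shared promoters also kept every member count within 1.5 times. It removed H3C4, H2AC7, H4C14 and H4C15, and kept the copies that are identical only after a shift. So did counting all identical copies as 1 keep the counts within 1.5 times, added after seeing the data. No paired analysis was possible because each condition has 1 Myc library. The peaks at histone genes had 6 to 20 fragments, and how fragments matching more than 1 copy were placed is not known here.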

Other observations

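Of 13 histone pseudogenes of the same naming, the list without doxycycline marked 2 and the day 5 list 3. H3C9P, on chromosome 6, had a peak in both lists, with 14 summit fragments in the library without doxycycline and 17 in that at day 5. The arginine tRNA gene TRR-TCG2-1 lies within 1 kb of the peak in each list. H2BC19P was reached by the H2AC18 peak without doxycycline, H2BC20P by the H2AC19 peak and H4C10P by the H2BC13 and H2AC13 peak at day 5.

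Between the histone genes there was little else. In the largest chromosome 6 block the only peak away from a member lay over the non-coding LINC02980, at 25992656 to 25993060 without doxycycline with 7 fragments and at 25992637 to 25993439 at day 5 with 12. In the other blocks every peak was at a member.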
